A study of Homo sapiens with 30 samples.

Results

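RNA polymerase II (Pol II) was found away from annotated start sites, within acetylated chromatin and outside regions bound by SAP30 without a SIN3 protein, at 1608 of the 15097 Pol II consensus regions of parental MDA-MB-231 cells (10.7%). These distal acetylated Pol II regions were chosen by the parental peak lists alone. A region was a set of Pol II summits, each extended by 500 bp to either side and merged where they overlapped, with a summit in both replicates. It had to overlap a region built in the same way from both parental H3K9Ac lists, to lie with all its summits more than 1000 bp from every basic start site of a coding or long noncoding RNA (lncRNA) gene in GENCODE, and to overlap no region that held SAP30 and neither SIN3A nor SIN3B. Of the other Pol II regions, 11668 (77.3%) lay at start sites, 1269 (8.41%) were distal and acetylated at SAP30-only regions, and 552 (3.66%) were distal with no H3K9Ac region.

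MDA-MB-231 is a human triple-negative breast cancer line, and the study asked by chromatin immunoprecipitation and sequencing where SAP30, which belongs to the SIN3 corepressor complex, binds and what follows its removal. Parental cells were profiled for SAP30, SIN3A, SIN3B, Pol II, trimethylated lysine 4 of histone H3 (H3K4me3) and acetylated lysine 9 (H3K9Ac), and cells of the SAP30 knockout line SAP30-KO1 for Pol II, H3K4me3 and H3K9Ac, with 2 libraries in each of these 9 groups. Per the methods, the knockout was made with CRISPR/Cas9, and several single knockout cells were mixed, so the line is a pool of clones and nothing shows that the 2 libraries of a group came from separate cultures. The line it is compared with is the parental one, by the labels, and not one given a non-targeting guide. Of the 30 samples of the series, 12 input and total H3 libraries were not analysed here.

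Enhancers are stretches of DNA that raise transcription from promoters at a distance. Active ones carry acetylated histones and open chromatin, and Pol II is loaded there too, where it makes short, unstable transcripts. AP-1, a dimer of FOS and JUN family proteins, is a factor known for binding enhancers of mesenchymal-like cells. H3K4me3 is the mark of active promoters, and H3K9Ac is found at promoters and enhancers alike, so distance from a start site and H3K9Ac do not by themselves separate an enhancer from a promoter that no gene model holds.

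The reference sequence (GRCh37) around the summit is shown for 7 of the 1608 regions, because each stands for a feature described in the values that follow. All are windows of 300 bases centred on the better-ranked parental Pol II summit. The first and second lie at small nuclear RNA genes, the components of the spliceosome, and the part of the window inside the gene is in capitals. The third, in an intron of BBC3, was among the best-ranked regions, and the fourth and the fifth had no Pol II summit in either SAP30-KO1 library. In these 3 the capitals mark a match to the AP-1 motif TGANTCA. The sixth moved to a worse rank in SAP30-KO1 and has its GC box matches (GGGCGG or its complement) in capitals. The seventh moved to a better rank, and it holds neither motif.
RNU4-1, chr12:120730707-120731006, minus strand: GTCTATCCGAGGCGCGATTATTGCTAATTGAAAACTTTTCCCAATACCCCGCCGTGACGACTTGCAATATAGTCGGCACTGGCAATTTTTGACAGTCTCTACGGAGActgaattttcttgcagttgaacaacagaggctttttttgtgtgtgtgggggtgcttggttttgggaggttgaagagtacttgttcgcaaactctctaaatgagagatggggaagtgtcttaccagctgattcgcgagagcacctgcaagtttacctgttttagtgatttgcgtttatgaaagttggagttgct
RNVU1-13, chr1:147994118-147994417, plus strand: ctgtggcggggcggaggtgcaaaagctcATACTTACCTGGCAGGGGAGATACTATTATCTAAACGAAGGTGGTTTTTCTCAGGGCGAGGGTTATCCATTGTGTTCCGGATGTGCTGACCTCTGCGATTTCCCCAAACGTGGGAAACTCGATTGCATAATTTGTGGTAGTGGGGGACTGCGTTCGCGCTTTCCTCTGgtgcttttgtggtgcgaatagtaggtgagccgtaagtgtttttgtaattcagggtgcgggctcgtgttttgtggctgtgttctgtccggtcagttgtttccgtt
BBC3 intron, chr19:47729435-47729734, plus strand: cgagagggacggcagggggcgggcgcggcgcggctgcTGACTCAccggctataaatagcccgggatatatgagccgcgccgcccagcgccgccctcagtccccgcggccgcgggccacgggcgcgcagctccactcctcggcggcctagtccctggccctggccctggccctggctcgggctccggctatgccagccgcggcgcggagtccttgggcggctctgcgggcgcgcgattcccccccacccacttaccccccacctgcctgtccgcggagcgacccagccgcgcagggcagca
FAM50B region, chr6:3826326-3826625, plus strand: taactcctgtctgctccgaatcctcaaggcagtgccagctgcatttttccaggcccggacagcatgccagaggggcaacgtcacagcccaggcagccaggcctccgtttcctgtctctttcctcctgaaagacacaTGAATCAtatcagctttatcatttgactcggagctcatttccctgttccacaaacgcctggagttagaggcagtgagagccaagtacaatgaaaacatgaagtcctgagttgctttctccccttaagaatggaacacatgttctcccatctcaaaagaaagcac
MAPK13 region, chr6:36095438-36095737, plus strand: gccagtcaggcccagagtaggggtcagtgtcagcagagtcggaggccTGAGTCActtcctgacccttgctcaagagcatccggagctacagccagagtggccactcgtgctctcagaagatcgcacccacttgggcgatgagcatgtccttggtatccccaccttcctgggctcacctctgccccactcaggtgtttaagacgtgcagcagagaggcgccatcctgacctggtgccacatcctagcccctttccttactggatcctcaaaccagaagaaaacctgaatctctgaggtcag
TUBB2A region, chr6:3163052-3163351, plus strand: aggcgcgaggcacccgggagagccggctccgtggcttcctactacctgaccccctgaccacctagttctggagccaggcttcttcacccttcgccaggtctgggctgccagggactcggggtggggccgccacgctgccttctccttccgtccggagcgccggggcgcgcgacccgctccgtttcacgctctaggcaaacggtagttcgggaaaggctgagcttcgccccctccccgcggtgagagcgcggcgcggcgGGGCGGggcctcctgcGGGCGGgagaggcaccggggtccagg
ID4 region, chr6:19759009-19759308, plus strand: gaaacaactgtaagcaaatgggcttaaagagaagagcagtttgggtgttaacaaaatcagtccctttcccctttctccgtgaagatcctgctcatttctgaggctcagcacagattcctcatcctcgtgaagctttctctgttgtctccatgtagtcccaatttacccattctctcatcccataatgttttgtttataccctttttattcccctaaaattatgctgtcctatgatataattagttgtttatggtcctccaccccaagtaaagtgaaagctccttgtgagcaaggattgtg

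Each summit carried the authors' score, which served here only to rank a summit in its own list, from 0% for the best to 100% for the weakest. The sequencing depth is unknown. The 4 Pol II lists held between 20735 and 23340 summits on the autosomes and chromosome X, the H3K9Ac lists between 50806 and 54621 and the H3K4me3 lists between 20727 and 24076, so the length of the lists differed little between the lines for Pol II.

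The distal acetylated regions were mostly weak Pol II regions. Their median rank was 63.7% in parental replicate 1 and 55.4% in replicate 2, while regions at start sites had medians of 30.0% and 26.7%. The distal acetylated regions at SAP30-only regions lay at 67.8% and 59.8%. Of the 1608 regions, 3.17% and 3.73% had a summit in the best 10% of the 2 lists. These ranks come from the lists that chose the regions and are a description.

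By position, 47.7% of the 1608 regions lay in introns, 44.5% between genes, 4.60% in exons outside untranslated regions and 3.23% in untranslated regions. The median distance to the nearest coding or lncRNA start site was 9286 bp. There were 776 regions (48.3%) more than 10000 bp away and 167 (10.4%) more than 50000 bp away. Close to the limit of the rule, 182 regions had their nearest summit less than 500 bp outside it, with a median of the mean parental rank of 63.6%. On the other side of the limit, 298 regions at start sites had their nearest summit less than 500 bp inside it, with a median of 56.5%. The end of a coding transcript lay within 1000 bp of 5.97% of the 1608 regions, against 5.58% of all Pol II regions, 4.57% of the distal acetylated regions at SAP30-only regions and 22.8% of the distal regions without H3K9Ac.

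A start site outside the set used by the rule lay within 1000 bp of 351 regions. For 281 of them it belonged to a transcript outside the basic set, for 44 to a pseudogene or another gene type, for 12 to a small nuclear RNA gene and for 14 to another small RNA gene. The other 1257 regions (78.2%) had no annotated start of any kind that close.

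The strongest of the regions were small nuclear RNA genes, which Pol II transcribes (RNU6 and RNU6ATAC genes are transcribed by Pol III) and which the rule leaves among the distal regions because they are neither coding nor lncRNA genes. Of the 12 such regions, 8 had a mean parental rank below 1%, and all 12 kept Pol II in both SAP30-KO1 libraries and H3K9Ac in both. The region at RNU4-1, a U4 RNA gene shown in the first sequence, had Pol II ranks of 0.0386% and 0.00435% in parental cells, then 0.00857% and 0.0497% in SAP30-KO1 cells. At RNVU1-18, a U1 variant gene, the ranks were 0.00965% and 0.0391% in parental and 0.0171% and 0.0271% in SAP30-KO1 cells. The lines overlapped at both genes, and each list had them among its best summits. At RNVU1-13, the second sequence, the ranks were 0.434% and 0.217% in parental and 0.242% and 0.895% in SAP30-KO1 cells. RNU5A-1, a U5 RNA gene, ranked 0.309% and 0.152% in parental and 0.33% and 0.316% in SAP30-KO1 cells, with both knockout ranks worse by less than the gap between the parental replicates. The RNU5A-8P pseudogene stood at 0.178% and 0.170% in parental and at 0.968% and 0.572% in SAP30-KO1 cells, so both knockout ranks were worse. RNU1-2 ranked 0.198% and 0.178% in parental and 0.129% and 0.0633% in SAP30-KO1 cells, and both knockout ranks were better. The regions at RNU6-1 and RNU6ATAC were far weaker, with mean parental ranks of 32.1% and 33.5%. Reads from near-identical copies of these genes could be placed at any of them, so a value at 1 copy is uncertain.

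The other regions among the 10 best-ranked were less easily placed. The best of all lay in an intron of FRMD4A at position 14227677 of chromosome 10, 111406 bp from the nearest start site, with ranks of 0.0241% and 0.0130% in parental and 0.0257% and 0.0769% in SAP30-KO1 cells. It had no H3K4me3 summit in any of the 4 libraries and none of the 3 proteins. A region in a TEX14 intron at a U3 small nucleolar RNA gene had 0.174% and 0.0522% in parental and 0.420% and 0.217% in SAP30-KO1 cells. It ranked worse in both knockout lists, while staying in the best 1% of each. In the BBC3 intron, 4867 bp from the start of this pro-apoptotic BCL2 family gene, the ranks were 0.364% and 0.274% in parental and 0.317% and 0.405% in SAP30-KO1 cells, which overlap. That window has a GC content of 76.3%, an AP-1 match and 39 CpG dinucleotides. The small RNA gene MIR3191 lay within 1000 bp of the BBC3 region.

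H3K4me3 took no part in the choice of the regions. A parental H3K4me3 summit was found at 62.6% of the 1608 regions in replicate 1 and at 61.6% in replicate 2, and at 58.5% and 58.3% in the SAP30-KO1 replicates. Both parental libraries had it at 926 regions (57.6%, exact 95% binomial interval 55.1% to 60.0%, counting error only), 1 library at 144 and neither at 538 (33.5%). Both libraries had it at 96.0% of the regions at start sites, 55.2% of the distal acetylated regions at SAP30-only regions, 15.8% of the distal regions without H3K9Ac and 85.5% of all Pol II regions. The label of enhancer Pol II therefore rests on distance and H3K9Ac: the mark of promoters was present at over 50% of the regions. With the start sites of every transcript in the rule, both libraries had H3K4me3 at 52.1% of the 1257 regions left. H3K4me1 and H3K27Ac, which mark enhancers, were not analysed here.

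**Figure D1:**
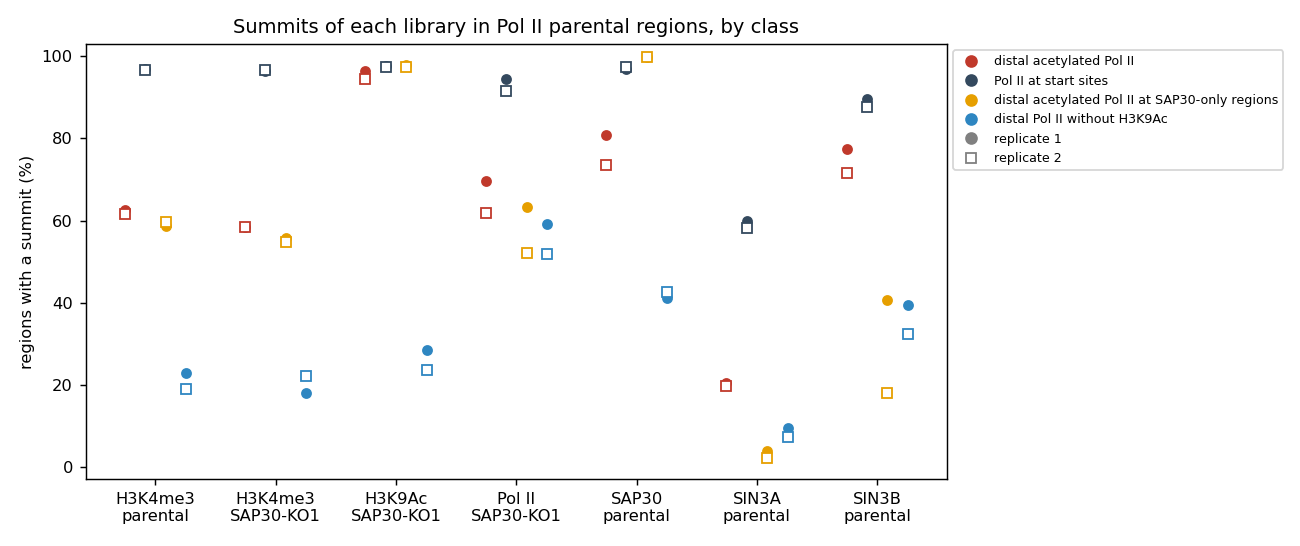
The vertical axis gives the percentage of Pol II parental consensus regions with a summit of the library group on the horizontal axis, for 4 classes of region (colours) and 2 replicates (filled circles and open squares). Distal acetylated Pol II regions had H3K4me3 at 62.6% and 61.6% in the parental replicates and kept H3K9Ac at 96.5% and 94.5% but Pol II at 69.6% and 61.8% in the SAP30-KO1 replicates.

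The SIN3 proteins also split the regions. By consensus regions, 900 regions held SAP30 and SIN3B without SIN3A, 171 held all 3 proteins, 51 held SIN3B alone, 423 held none and 63 held another combination. Regions with SAP30 and no SIN3 protein are missing here because the rule removes them. H3K4me3 was in both parental libraries at 81.3% of the regions with all 3 proteins, 68.9% of those with SAP30 and SIN3B, 51.0% of those with SIN3B alone and 25.1% of those with none. The median of the mean parental Pol II rank followed the same order, from 51.7% with all 3 proteins through 56.1% and 69% to 73.0% with none. Each list ends at a threshold of significance, so a region said to hold none may have weaker signal of a protein. The best-ranked regions with SIN3A lay 5932 bp from RNF225 (1.60% and 1.63% in parental, 3.03% and 3.01% in SAP30-KO1 cells), 9413 bp from MYBL2, a cell cycle transcription factor gene (5.98% and 1.61%, then 2.66% and 6.93%), and 14166 bp from COPZ2 (4.40% and 3.23%, then 10.4% and 3.24%). All 3 held H3K4me3 in every library. The ranks overlapped between the lines at MYBL2 and COPZ2, and at RNF225 both knockout ranks were worse. The RNF225 region had a start of a transcript outside the basic set within 1000 bp.

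The 538 regions without H3K4me3 and the 926 with it in both parental libraries differed in sequence. Median GC content within 300 bases of the reference, centred on the summit, was 52.5% without and 62.0% with H3K4me3, and the median number of CpG dinucleotides was 4.5 and 16. Over all 1608 regions the medians were 57.3% and 9, against 69% and 30 at start sites.

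AP-1 matches (TGANTCA, either strand, within the same 300 bases) were found at 405 of the 1608 regions (25.2%). The share was 4.26% at start sites, 25.8% at the distal acetylated regions with SAP30 only, 12.9% at distal regions without H3K9Ac and 8.62% over all Pol II regions. It was 34.2% at regions without H3K4me3 and 19.1% at those with H3K4me3 in both libraries. The density of matches over the 1608 regions was 0.949 per kb in the window and 0.324 per kb in the sequence 1000 to 2000 bp away, whereas at start sites it was 0.151 per kb in the window and 0.275 per kb away from it. The match in the BBC3 intron and those in the FAM50B and MAPK13 regions are examples. AP-1 matches were fewer among the stronger regions: with the better-ranked 50% of each list in the rule, 324 regions were left and 13.3% held a match.

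The GC box (GGGCGG, either strand), which Sp1-like factors bind, was less frequent than at start sites, with matches at 37.9% of the 1608 regions, 75.3% at start sites, 66.1% over all Pol II regions, 52.4% of the regions with H3K4me3 in both libraries and 15.2% of those without. At distal acetylated regions with SAP30 only the share was 36.6%. GC boxes were still denser at the summits of the 1608 regions than beside them, at 2.46 per kb near the summit and 0.658 per kb 1000 to 2000 bp away. At start sites these densities were 6.09 and 0.575 per kb. Matches to AGATAA, the motif of GATA factors, were found at 8.58% of the 1608 regions against 4.31% of all Pol II regions, but at 0.303 per kb near the summit and 0.519 per kb 1000 to 2000 bp away, so this motif was no denser at the summit than beside it. The same held for CEBP (TTGCNNAA, 9.51% against 5.56%) and FOX (TGTTTAC, 3.54% against 1.84%). RUNX (TGTGGTT) was at 5.10% against 2.70%, and TEAD (ACATTCC) at 4.42% against 2.44%, both at like densities near the summit and away from it. ETS (CCGGAAGT), NRF1 (GCGCATGCG) and CTCF (AGGGGGCGC) had shares of 1.80%, 0.871% and 1.43%, all under the 5.73%, 2.47% and 2.29% of all Pol II regions. They were nevertheless denser near the summits of the 1608 regions than 1000 to 2000 bp away, at 0.0622 against 0.00746 per kb for ETS, 0.0518 against 0.00404 for NRF1 and 0.0518 against 0.0115 for CTCF. The E-box CACGTG was at 6.22% against 7.52% and NF-kB (GGGANTTCC) at 1.87% against 2.01%, with densities of 0.218 and 0.0684 per kb near the summit and 0.159 and 0.0364 away from it. Each motif was counted by itself, also where its letters overlapped another. A match is a description of letters and shows no binding.

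**Figure D2:**
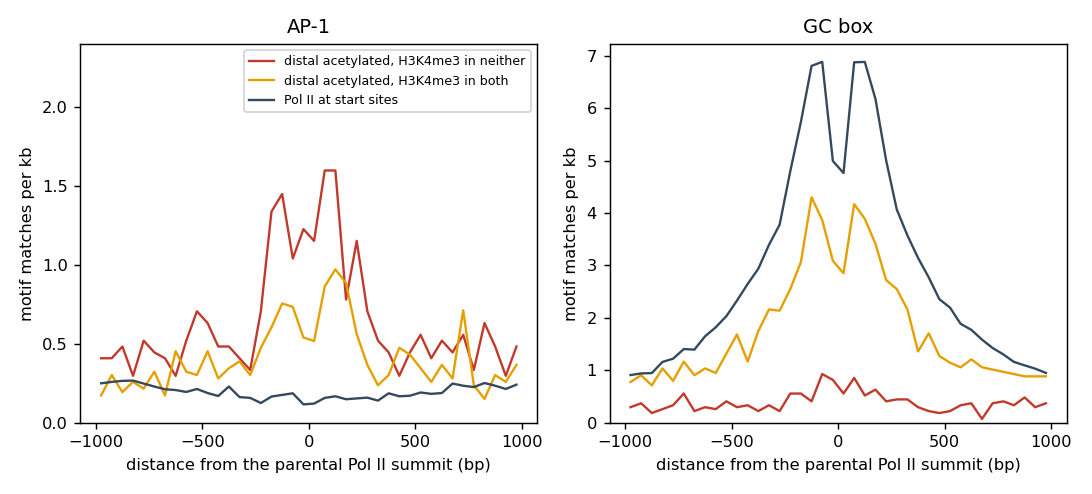
Matches per kb to the AP-1 motif (left) and the GC box (right) are plotted against distance in bp from the parental Pol II summit, in bins, for distal acetylated regions without H3K4me3, those with it in both parental libraries, and regions at start sites. AP-1 matches peak near the summit of distal regions, most in those without H3K4me3 (34.2% of windows). GC boxes are densest at start sites (75.3% of windows) and also peak near the summit of distal regions with H3K4me3.

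The nearest H3K9Ac summit mostly lay beside the Pol II summit rather than on it, and on which side was not measured. The nearest H3K9Ac summit lay at a median of 285 bp and 280 bp in the parental replicates and 274 bp and 282 bp in the SAP30-KO1 replicates, and 10.6% or less of the regions had one within 100 bp in any of these libraries. At start sites the parental medians were 233 bp and 228 bp.

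Whether SAP30 knockout changed Pol II at the regions was compared first by presence. A summit was found in both SAP30-KO1 libraries at 851 of the 1608 regions (52.9%), in 1 at 410 (25.5%) and in neither at 347 (21.6%). The background, the share of all 15097 Pol II parental regions absent from both SAP30-KO1 libraries, was 8.39%. At start sites it was 3.50%, and at distal acetylated regions with SAP30 only it was 26.7%. In the other direction, the same rule on the SAP30-KO1 lists gave 911 of 12297 regions (7.41%), of which 40 (4.39%) had a summit in neither parental library, against 0.878% of all SAP30-KO1 Pol II regions. Of the 1608 parental regions, 740 (46%) overlapped one of the 911, and of the 911, 721 (79.1%) overlapped one of the 1608.

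Loss followed the rank of a region in the parental lists. All Pol II regions were split into 4 groups of equal size by their mean parental rank, with limits at 18.2%, 35.3% and 56.1%. None of the 94 distal acetylated regions in the best-ranked group and none of the 172 in the next were absent from both SAP30-KO1 libraries. In the third group 11 of 384 (2.86%) were absent, and in the weakest 336 of 958 (35.1%). Over all Pol II regions these shares were 0%, 0.0530%, 2.04% and 31.5%, and in the weakest group they were 23.8% at start sites, 36.8% at distal acetylated regions with SAP30 only and 39.6% at distal regions without H3K9Ac. In bins of 10% losses at distal acetylated regions and at start sites were 9.09% against 7.59% at ranks of 50% to 60%, 26.6% against 18.8% at 60% to 70%, 39.6% against 29.6% at 70% to 80% and 44.7% against 42.2% at 80% to 90%. With the losses of all Pol II regions weighted to the distal acetylated regions' own bins of rank, the background rises from 8.39% to 20.4%, and with those of regions at start sites from 3.50% to 17.2%, against the 21.6% found. All Pol II regions include the 1608 themselves. Weighted in the same way, the loss was 23.3% at distal acetylated regions with SAP30 only and 24.3% at distal regions without H3K9Ac, both above the 21.6%.

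**Figure D3:**
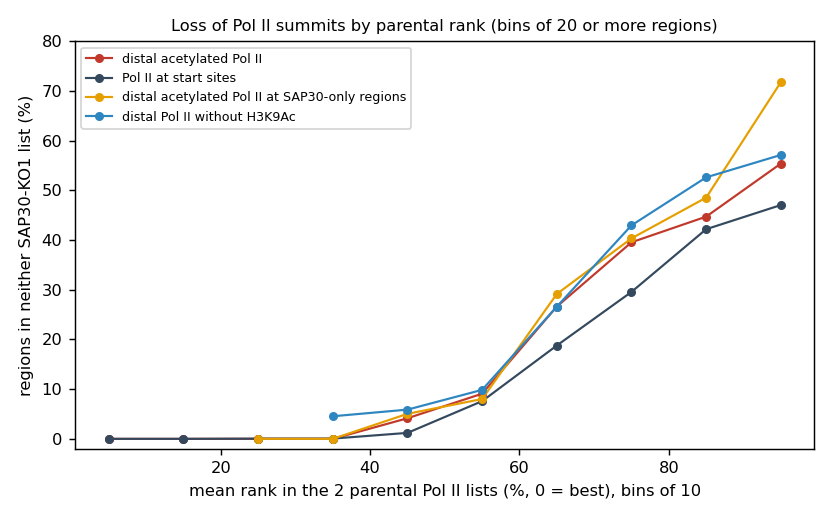
The vertical axis gives the percentage of Pol II parental consensus regions with no summit in either SAP30-KO1 library, and the horizontal axis the mean parental rank in bins of 10%, for 4 classes of region. In all classes loss began past a rank of 40%, with small exceptions. In the last bin the distal acetylated regions reached 55.4%, against 47.1% at start sites, 71.8% at distal acetylated regions with SAP30 only and 57.1% at distal regions without H3K9Ac.

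Replicates of a line also missed each other's regions. The rule was applied to each Pol II library alone, with the H3K9Ac regions of its line. Of the 2102 regions of parental replicate 1, 17.4% had no summit in parental replicate 2, and 37.2% and 44.7% had none in the SAP30-KO1 libraries. Of the 2827 of parental replicate 2, 37.6% were missing from parental replicate 1, and 46.8% and 54.9% from the SAP30-KO1 libraries. From either parental library, more regions were therefore missing from each knockout library than from the other parental one. Of the 1836 regions of SAP30-KO1 replicate 1, 43.1% were missing from replicate 2, but 32.3% and 23.4% from the parental libraries. Of the 1432 of SAP30-KO1 replicate 2, 29.3% were missing from replicate 1, and 26.2% and 19.1% from the parental libraries. From the knockout side, fewer regions were missing from the parental lists than from the other knockout list. Misses between the lines ran from 19.1% to 54.9% and misses between replicates of a line from 17.4% to 43.1%, so the ranges overlapped. Among the better-ranked 50% of each list, 2.58% to 10.7% were missing between lines and 3.22% to 10.4% within a line.

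**Figure D4:**
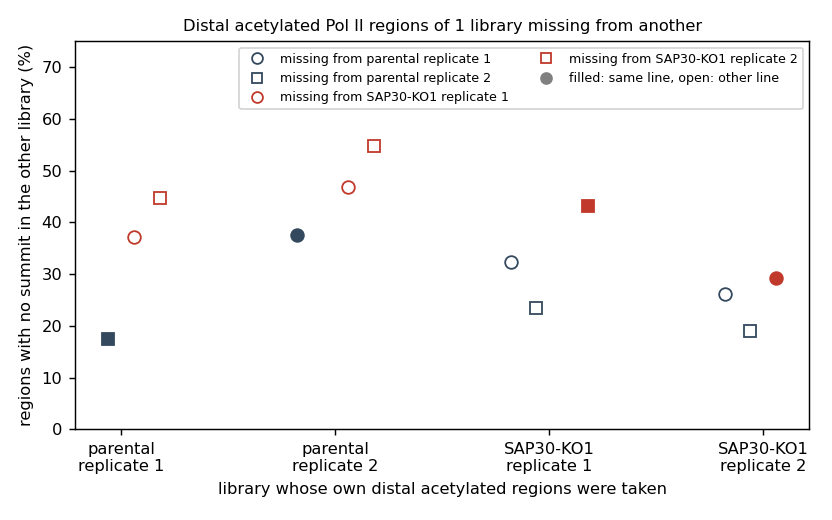
For the distal acetylated Pol II regions of each single library (horizontal axis), the vertical axis gives the percentage with no summit in each other library, with filled symbols for a library of the same line and open ones for the other line. Parental regions were missing from SAP30-KO1 libraries at 37.2% to 54.9% and from the other parental library at 17.4% and 37.6%.

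Counted in each library, distal acetylated Pol II summits numbered 4547 and 6015 in parental cells (5281 ± 1038, SD, n = 2) and 4216 and 3322 in SAP30-KO1 cells (3769 ± 632, n = 2), SAP30-only regions included, as in the fixed definition of this count. The ratio of the means was 0.714, and both knockout counts lay below both parental counts (exact permutation test, two-sided, p = 0.333, the smallest that 2 against 2 allows). As shares of the lists the values were 21.9% and 26.2% in parental and 18.1% and 15.0% in SAP30-KO1 cells. Outside SAP30-only regions there were 2713 and 3570 summits in parental and 2667 and 2159 in SAP30-KO1 cells, with the highest knockout count just under the lowest parental one and a ratio of the means of 0.768 (exact permutation p = 0.333).

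Most regions without Pol II in the knockout kept their acetylation. H3K9Ac was found at 96.5% and 94.5% of the 1608 regions in the 2 SAP30-KO1 libraries and was absent from both at 29 (1.80%), against 0.634% of all Pol II regions with parental H3K9Ac. At the 347 regions that lost Pol II, H3K9Ac was present in both SAP30-KO1 libraries at 89.0% and absent from both at 10. H3K4me3 was in both parental libraries at 30.5% of these 347 and in both SAP30-KO1 libraries at 22.8%. At the 851 regions with Pol II in both SAP30-KO1 libraries, H3K4me3 was in both parental libraries at 73.3%. Over the regions with H3K4me3 in both parental libraries, 39 of 926 (4.21%) lacked it in both SAP30-KO1 libraries, against 0.906% of all such Pol II regions. Of the 538 without, 11 (2.04%) had it in both SAP30-KO1 libraries, against 1.88%. Of the 12913 Pol II regions with H3K4me3 in both parental libraries, 11199 lay at start sites. The losses of H3K9Ac and H3K4me3 were not weighted by rank as those of Pol II were, so the part of rank in them was not tested.

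As counts with no test, Pol II loss went with mark and protein. It was 11.4% at the regions with H3K4me3 in both parental libraries and 37.2% at those with it in neither, and within the weakest group by rank 24.7% and 43.8%. By protein it was 9.36% with all 3 proteins, 15.6% with SAP30 and SIN3B, 35.3% with SIN3B alone and 39% with none, and within the weakest group 21.6%, 29.7%, 46.2% and 44.9%. The regions with another combination lost Pol II at 12.7%, and at 21.1% within the weakest group. Loss was thus more frequent with SIN3B alone or with none of the proteins than in the 2 sets with SAP30 and SIN3B. The distal acetylated regions at SAP30-only regions, which the rule removes, hold SAP30 as well. They lost Pol II at 26.7%, and at 36.8% within the weakest group, so SAP30 by itself did not go with a low loss. Only 222 of the 1608 regions had no SAP30 summit in either library, so part of the 423 called without the 3 proteins had SAP30 in 1 library. Both splits held inside each other: with SAP30 and SIN3B, the loss in the weakest group was 22.6% where H3K4me3 was in both libraries and 37.6% where it was in neither, and with none of the proteins it was 32.5% and 48.6%. Regions with an AP-1 match lost Pol II at 28.4% and those without at 19.3%, and within the weakest group at 37.8% and 33.8%. Rank within that group also differs between these sets, and its part in these shares was not tested. Over all Pol II regions the loss was 8.39%, and 31.5% within the weakest group. No split of all Pol II regions by mark, protein or motif is given here. Whether these splits are particular to the 1608 regions was therefore not tested. By chromosome the loss ranged from 1 of 21 regions (4.76%) on chromosome X, where 6.61% of all Pol II regions were lost, to 19 of 58 (32.8%) on chromosome 7, where 9.07% of all were.

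The best-ranked of the lost regions lay near the middle of the parental lists. A region in a LINC00595 intron, 1954 bp from its start and 269284 bp from RPS24, the nearest coding gene, ranked 41.1% and 41.6% in the parental lists, and the nearest SAP30-KO1 Pol II summits lay 269228 bp and 269261 bp away. It kept H3K4me3 and H3K9Ac in both SAP30-KO1 libraries. The MAPK13 region, 2687 bp from the start of this p38 kinase gene, ranked 44.4% and 47.1%, and the nearest knockout summits were 68998 bp and 68963 bp away. It kept both marks in both knockout libraries as well, and a start of a transcript outside the basic set lay within 1000 bp of it. The FAM50B region, 23391 bp from that gene, ranked 46.1% and 46.3%, with the nearest knockout summits 64574 bp and 64545 bp away, and kept H3K9Ac. A region 209156 bp from HMGA2, an architectural chromatin protein gene, and 2075 bp from the start of MSRB3-AS1 ranked 55.9% and 41.0%, and it was the only one of the 5 with no H3K9Ac in either SAP30-KO1 library. The region 1293 bp from CCRL2 ranked 40.7% and 48.2%, and there the nearest knockout summits were only 1509 bp and 1523 bp away. The nearest gene does not show which gene a distal region acts on.

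The 5 best-ranked of the 40 regions found only by the knockout lists had parental summits nearby, and the distance was not measured for the others. Of the regions of the SAP30-KO1 lists with no parental summit, the best-ranked lay 2700 bp from CCN1, 1715 bp from JUND and 1703 bp from H2AC6, with parental summits 2619 bp and 2662 bp, 1658 bp and 1670 bp, and 2030 bp and 1596 bp away. CCN1 encodes a secreted matrix protein and JUND an AP-1 subunit. Their ranks in the SAP30-KO1 lists were 3.59% and 5.21% at CCN1, 9.05% and 7.94% at JUND, and 10.7% and 25.1% at H2AC6. The region 78602 bp from PPARA ranked 10.8% and 11.4%, and the one 51758 bp from TUBD1 ranked 22.0% and 3.25%. Every one of these 5 had a parental summit within 3895 bp in both libraries.

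For the 851 regions with a summit in all 4 Pol II libraries, ranks were taken again among the 12063 Pol II regions present in all 4. The median rank was 78.8% and 78.6% in the parental and 75.5% and 72.8% in the SAP30-KO1 libraries, and the medians of all 12063 lay between 49.2% and 50.1%. The knockout medians were better by 4.59 percentage points, with no overlap between lines (exact permutation p = 0.333, the smallest possible). Taken in the whole lists instead, the knockout medians were worse by 0.526 points and the lines overlapped (exact permutation p = 1), so the direction rests on the way of ranking. Both knockout ranks were better than both parental ranks at 240 regions (28.2%), against 20.4% of all 12063, and worse at 142 (16.7%), against 20.6%. The other distal classes showed a like pattern. At distal acetylated regions with SAP30 only, 28.6% ranked better and 13.8% worse, and at distal regions without H3K9Ac 32.9% and 11.5%. In 4 bands of parental rank of equal width, the shares at start sites changed with rank in the same direction: in the weakest band 37.6% of 474 distal regions and 32.9% of 1829 at start sites ranked better, and in the best band 45.5% of 66 and 32.5% of 2756 ranked worse. The choice of regions present in all 4 lists bears on these shares, since a weak region must have kept its summit to be counted. The regions were also chosen by the parental lists, and ranks of regions chosen by the knockout lists were not taken.

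**Figure D5:**
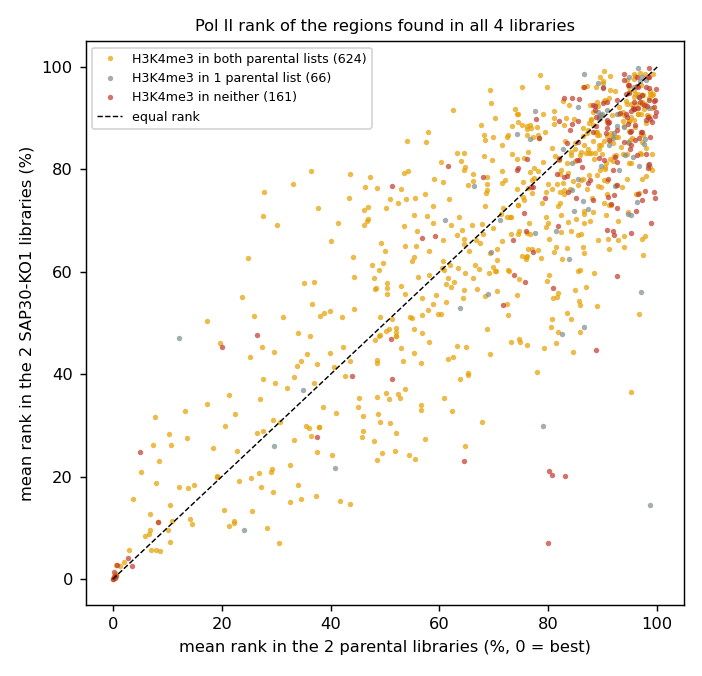
Each point is 1 of the 851 distal acetylated regions with Pol II in all 4 libraries, at its mean rank in the parental libraries (horizontal, %, 0 is best) and in the SAP30-KO1 libraries (vertical), coloured by parental H3K4me3. Most points lie in the upper right, at the medians of 78.8% and 78.6% in parental and 75.5% and 72.8% in SAP30-KO1 libraries, and a few regions without H3K4me3 lie far below the line of equal rank.

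The 5 regions that moved most to a worse rank lay 3371 bp from CIC, a transcriptional repressor gene, 10100 bp from MMEL1, 5925 bp from C17orf99, 1859 bp from APOLD1 and 5432 bp from TUBB2A, a beta-tubulin gene. At CIC the ranks among the 12063 regions were 28.6% and 27.1% in parental and 75.5% and 75.6% in SAP30-KO1 cells. At TUBB2A they were 31.0% and 29.3% in parental and 80.2% and 58.2% in SAP30-KO1 cells. The gap between the lines was larger than the gap between replicates at both. All 5 held SAP30 and SIN3B, H3K4me3 in all 4 libraries and H3K9Ac in both knockout libraries, and their windows had GC contents of 65.3% to 74.7%. SIN3A was also held at CIC and APOLD1 and not at the other 3. These traits were common among the 851 regions, of which 552 held SAP30 and SIN3B, another 114 held SIN3A as well, and 624 had H3K4me3 in both parental libraries. The CIC region had a start of a transcript outside the basic set within 1000 bp.

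Of the 5 that moved most to a better rank, 4 had no H3K4me3 in any library and none of the 3 proteins. They lay 12969 bp from ST3GAL4, 78358 bp from ID4, 19773 bp from APPL2 and 20458 bp from SMIM14, with GC contents of 41.3% to 49.7%. At ST3GAL4, a sialyltransferase gene, the ranks were 70.2% and 89.7% in parental and 10.4% and 3.89% in SAP30-KO1 cells. At ID4, which encodes an inhibitor of basic helix-loop-helix factors, they were 87.4% and 78.9% in parental and 13.6% and 26.8% in SAP30-KO1 cells. The knockout summits lay within 173 bp of the parental one at ID4 and within 118 bp at ST3GAL4. H3K9Ac was in both knockout libraries at all but SMIM14, where it was in neither. At the region 1648 bp from CDCA4, the strongest knockout summits lay 1025 bp and 974 bp from the parental one and 395 bp and 446 bp from a start site, so its change from 98.3% and 99.1% to 21.3% and 7.50% was read from summits at that start. Among the 851 regions, 161 had H3K4me3 in neither parental library, with parental median ranks of 90.4% and 90.8%. The 131 with none of the 3 proteins had parental medians of 92.1% and 91.4%. Regions that start so low have little room for a worse rank. The 10 named regions were picked for the size of their change, so the values are a description.

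H3K9Ac moved little. Ranked among the 26604 H3K9Ac regions with a summit in all 4 H3K9Ac libraries, the 1615 that touched a distal acetylated Pol II region had medians of 40.7% and 40.5% in parental and 42.0% and 42.4% in SAP30-KO1 cells, a shift of 1.66 points to worse ranks with no overlap (exact permutation p = 0.333, the smallest possible). Both knockout ranks were worse at 387 (24%), against 20% of all such H3K9Ac regions, and better at 267 (16.5%), against 19.4%. The 1615 regions were chosen by parental lists, H3K9Ac among them, which may bear on the direction. Ranks of regions chosen by the knockout lists were not taken.

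Genes of known programs were looked up as the nearest coding gene of a region. The share over all coding genes was not counted, so whether a list held many or few was not tested. In the AP-1 list of 12 genes, 6 genes were nearest to 10 regions, of which none was lost and 8 had Pol II in both SAP30-KO1 libraries. In the whole lists, the region 1637 bp from JUNB ranked 27.2% and 19.1% in parental and 14.7% and 8.87% in the SAP30-KO1 lists, with both knockout ranks better. The one 10652 bp from JUND ranked 30.1% and 28.6% in parental and 28.1% and 25.9% in SAP30-KO1 lists, and one 31512 bp from JUN ranked 35.9% and 34.0%, then 25.9% and 22.7%. At all 3 the knockout ranks in the whole lists were better than the parental ones, though at JUND the gaps were small. Ranked among the 12063 regions present in all 4 libraries, the JUND region overlapped between the lines, at 50.4% and 53.6% in parental and 51.0% and 44.1% in SAP30-KO1 cells. JUNB and JUN kept their direction there.

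In the list of 19 YAP and TEAD targets, 10 genes were nearest to 13 regions, and 5 were lost. CCN1 and CCN2, matrix protein genes known as YAP targets, each had a region with Pol II in both lines. The CCN1 region, 26718 bp away, ranked 27.6% and 30.0% in parental and 20.2% and 23.9% in SAP30-KO1 lists, and the CCN2 region, 2858 bp away, ranked 48.3% and 50.7%, then 41.9% and 14%. The CCN2 region had H3K9Ac in neither knockout library and a start of a transcript outside the basic set within 1000 bp. At ANKRD1 the ranks were 48.8% and 50.3%, then 55.8% and 60.3%. Among the regions present in all 4 libraries they were 77.9% and 87.5%, then 84.8% and 83.3%, which overlap. Of 29 mesenchymal genes only ITGB1, SPARC and TWIST2 were nearest to a region, 1 each, and the TWIST2 region was lost. SPARC, a matrix protein gene, kept Pol II in both libraries at 71.0% and 62.8% in parental and 61.4% and 64.2% in SAP30-KO1 lists, which overlap. Among the regions present in all 4 libraries the SPARC region ranked 94.5% and 95.6%, then 88.5% and 86.0%, with no overlap.

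Of 19 cytokine and NF-kB genes, NFKB2 alone had a region, present in 1 SAP30-KO1 library. Of 19 luminal and epithelial genes, 5 had 8 regions, of which 3 were lost and 1 kept Pol II in both libraries. Genes the study followed had 2 regions. The one 98469 bp from ARTN, a neurotrophic ligand gene, ranked 90.5% and 53.2% in parental and 58.2% and 34.2% in SAP30-KO1 lists, which overlap. Among the regions present in all 4 libraries it ranked 99.0% and 90.1%, then 86.5% and 55.9%, with no overlap. The one 66534 bp from RDX, the gene of the cytoskeletal linker radixin, ranked 80.8% and 87.8% in parental lists and was absent from both SAP30-KO1 lists. Both kept H3K9Ac. Over all 1608 regions 21.6% were lost and 52.9% had Pol II in both SAP30-KO1 libraries. Set beside these values, the lists are too short for a share to be read.

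Regions also lay near each other. Joined by distance, with a largest gap of 12468 bp inside a stretch, 296 of the 1608 fell into 135 stretches of at least 2 regions. The longest held 5, over 28704 bp of chromosome 11 (65648531 to 65677235) at FOSL1, an AP-1 subunit gene, CCDC85B, C11orf68 and CTSW, of which 1 was lost and 3 kept Pol II in both SAP30-KO1 libraries. Stretches of 4 lay at DNAJB12, where 1 was lost and 3 kept Pol II in both, and at CDCA4, where none was lost and 3 kept it in both.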

How the data were processed

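The authors aligned the reads to hg19 and called peaks in each library by itself. The submitters' processing notes name FastQC 0.11.2, Bowtie2 2.3.3.1, Picard and MACS2 2.1.0, without options, and which control each list was called against is not given in the sources used here. The deposited files list summits of 1 bp with the −log10 of a q-value, the authors' score. Depth is unknown, and the score was used only for ranks within a list. Autosomal and chromosome X summits were extended by 500 bp and merged, and a library was present at a region where its extended summit overlapped it. Start sites and positions came from GENCODE release 44 lifted to GRCh37, and sequence from GRCh37, with Python 3.11.15, numpy 2.4.6, scipy 1.17.1 and pysam 0.24.0. Samples were grouped by antibody and line as labelled. Counts and median ranks per library were tested by exact permutation, two-sided, whose smallest p with 2 against 2 is 0.33. Regions are not replicates and got no p. Intervals cover counting error only. Class and loss calls were checked on simulated lists. Regions were named by the nearest coding start site: the 10 best-ranked, the 5 best-ranked lost, the 5 that moved most each way, the 3 best-ranked with SIN3A, up to 3 for each gene list, the 5 best-ranked found only by the knockout lists and the 3 stretches with most regions. Of these, 1 region is not reported here. In each sequence window the marked motifs were found on both strands. The regions, the lists and the naming rules were chosen with earlier results of these data known. The comparison of single libraries and the weighting of losses by rank were added after seeing the data. Alternatives were other extensions, windows, start sites, overlaps, stricter and equal-length lists and each replicate left out.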

Additional observations from a re-analysis of the deposited data

How the results depend on the processing

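The number of distal acetylated Pol II regions was 1608 as reported, 3380 with regions of either replicate, 324 with the better-ranked 50% of each list, 2877 without the exclusion of SAP30-only regions, and 2102 to 2827 with 1 parental Pol II replicate left out, 2827 being without replicate 1. Between 1239 and 1798 were found with the other extensions, windows, start sites and overlap. The share with H3K4me3 in both parental libraries, 57.6% as reported, was 53.3% and 58.4% with extensions of 250 bp and 1000 bp, 52.1% with every transcript's start site, 59.1% and 55.6% with windows of 500 bp and 3000 bp, 44.8% with the better-ranked 50%, and 61.6% to 62.6% with 1 H3K4me3 replicate. For the 44.8% the H3K4me3 lists were cut to their better-ranked 50% too, which can only lower the share of a given set of regions. As reported, the median of the mean parental Pol II rank was 51.7% with H3K4me3 in both libraries and 72.8% with it in neither. Pol II loss, 21.6% as reported, was 21.6% to 24.1% under the other settings and 30.4% to 38.2% where absence from 1 SAP30-KO1 library sufficed, 38.2% being without replicate 1. Lists of equal length gave 23.6%. H3K9Ac loss, 1.80% as reported, was 3.57% with extensions of 250 bp and 3.48% to 5.47% with 1 SAP30-KO1 replicate. Fewer libraries make absence easier by construction. AP-1 matches, at 25.2% of windows of 300 bases, were at 44.7% of windows of 1000 bases, which are longer, and at 13.3% with the better-ranked 50%, where the cause was not tested.

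The ratio of distal acetylated Pol II summits per library, 0.714 as reported, kept its direction in every alternative, from 0.627 to 0.829 with 1 library left out, 0.674 with lists of equal length and 0.686 to 0.797 with the other windows and as a share of the list. The count outside SAP30-only regions was added after seeing the data. The Pol II rank difference, KO minus parental, was -4.59 points among regions in all 4 libraries, -2.97 and -4.14 with the other extensions and -5.35 to -4.08 with 1 library left out, and turned to 0.526 with ranks in the whole lists, where the cause was not tested. That of H3K9Ac ran from 1.48 to 1.81 with 1 library left out, around 1.66. With the replicate number as a block, the ratio of 0.714 and the rank differences of -4.59 and 1.66 are the same values, with a smallest exact permutation p of 0.5, which each reached. The labels give the numbers no shared day or batch. Over the regions in all 4 libraries the difference of replicate 1 and 2 in parental cells correlated with that in SAP30-KO1 cells at 0.0484 for Pol II and -0.00565 for H3K9Ac. Ranks taken within each library hold no shift of a whole library, so these correlations cannot decide whether same-numbered samples shared a batch. With 2 libraries a group and unknown depth, weak summits near the threshold of a list limit every count of presence.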
